A study of Mus musculus with 48 samples.

Results

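The 10 core clock genes Arntl (Bmal1), Clock, Npas2, Per1, Per2, Per3, Cry1, Cry2, Nr1d1 (Rev-erbα) and Nr1d2 (Rev-erbβ) were followed over 6 times of day in subcutaneous white adipose tissue (sWAT) of mice on 2 feeding regimens. They were picked by symbol among the 54532 genes of the count table, and all 10 were among the 19977 genes with enough reads to be tested. The animals were mice aged 8 months, of strain C57BL/6 by the labels and C57BL/6J by the study's methods, with food always at hand (ad-lib) or with 2 nightly meals (the TAN regimen), the first at 9 to 11 PM and the second at 5 to 7 AM. Lights were off between 8 PM and 8 AM. Bulk RNA-seq was done on the inguinal depot every 4 h, at 8 AM, 12 PM and 4 PM and at 8 PM, 12 AM and 4 AM, with 4 libraries for each diet and time, 48 in all. The labels name no altered allele, drug or transgene, and the ad-lib mice of the same time are the controls of each TAN group. The labels name only the feeding regimen as the difference between the diets. By the study's account TAN mice also ate somewhat less, so that meal times and the amount eaten cannot be told apart. The labels do not say whether 1 library is 1 mouse, so the p-values measure the spread between these libraries.

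The molecular clock is a feedback loop of transcription. BMAL1, the product of Arntl, pairs with CLOCK or its relative NPAS2 and activates genes that carry E-boxes, among them the Period and Cryptochrome genes, whose proteins return to the nucleus and shut that activation down. A second loop runs through the nuclear receptors REV-ERBα and REV-ERBβ, which are made under E-box control and repress Arntl, Clock and Npas2. In peripheral tissues of nocturnal rodents Arntl RNA is known to crest near the end of the night and Nr1d1 RNA in the light phase, and meal times are known to reset such peripheral clocks.

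Total counts ran from 15636378 to 29913310 per ad-lib library (median 21357723) and from 15685080 to 25440243 per TAN library (median 20034254). The series text names a stromal vascular fraction as the material. The summed level of the adipocyte markers was nevertheless 4742 to 48135 CPM, the count scaled to library size, in all 48 libraries, so the tissue is called sWAT here. In bulk tissue, fewer cells of a type and less RNA per cell cannot be told apart. The time labels carry a second uncertainty, and it bears on phase directly. The deposited group averages matched the count table under the same time label in 12 of 12 groups. A per-library listing given with the study, however, listed 48 of 48 libraries under a time 12 h apart (979 genes compared), and 0 under the same time. Times below are those of the count table, and which of the labellings is right was not tested. The groups compared hold the same libraries either way.

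Several libraries stood apart. Each library's profile over the 10 genes was set against the mean profiles of the 6 times in the other libraries of its diet. The closest time was its own for 23 of 24 TAN libraries and for 17 of 24 ad-lib libraries. The clearest departures were ad-lib replicates 1 and 3 at 4 AM. Replicate 1 lay closest to 4 PM (root mean square log2 distance 0.41, against 1.92 to the other libraries of its own time), and replicate 3 closest to 12 PM (1.07 against 1.63). By the 8 clock output genes, which are not members, replicate 1 again lay closest to 4 PM (0.50 against 1.62), whereas replicate 3 lay closest to 8 AM (0.36 against 0.87), 4 h from its label. Replicate 3 also held 5993 CPM of skeletal muscle markers, against 12.0 to 18.3 CPM in the other 3 ad-lib libraries of that time. The 1 TAN library closest to another time by the 10 genes was replicate 1 at 4 PM, which lay closest to 12 PM (0.91 against 1.44). By the output genes it lay closest to 8 PM (0.53 against 0.79). Among TAN libraries, replicates 1 and 2 at 8 PM had the 2 lowest adipocyte marker sums of all 48 (7788 and 4742 CPM, against 29850 and 39953 in the other 2). At 4 PM the adipocyte marker sums did not overlap between the diets, with 24371 to 48135 CPM in TAN and 10028 to 16023 CPM in ad-lib. Lymphocyte markers were at 169 to 588 CPM in TAN at 4 PM and at 1796 to 3646 CPM in ad-lib. At 12 AM they were at 135, 582 and 103 CPM in TAN replicates 2, 3 and 4, against 1904 CPM in replicate 1 and 1799 to 2130 CPM in ad-lib. The main values that change without ad-lib replicates 1 and 3 of 4 AM or TAN replicates 1 and 2 of 8 PM are also given without them. The former were picked by the members themselves. A smaller ad-lib spread or a clearer ad-lib wave without them therefore follows in part from that choice.

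Promoter sequence from RefSeq (GRCm38.p6, 250 bases before to 50 after each start) was found by symbol for 9 of the 10 genes, at 13 start sites, and Per2 was not matched. Windows from 5 of the genes are shown, at least 1 for each of 4 classic clock elements, with the elements that lie whole inside them in capitals. They are the E-box CACGTG, the related CACGTT, the AGGTCA element of REV-ERB receptors and the D-box TTATGTAA, each read on both strands. Cry1 has an E-box and a CACGTT within chr10:85185082-85185141 (minus strand), at positions -60 and -79 from its start. Per1 has an E-box at position -166, within chr11:69098756-69098815 (plus strand), and an AGGTCA at position -137 that runs past the end of this window and is left in lower case. Per3 has 2 D-boxes within chr4:151044804-151044883 (minus strand), at positions -205 and -158. Nr1d1 has a CACGTT at position -28, within chr11:98775378-98775437 (minus strand). Arntl has AGGTCA at position 31 of the second of its 2 listed starts, within chr7:113207530-113207559 (plus strand).
Cry1: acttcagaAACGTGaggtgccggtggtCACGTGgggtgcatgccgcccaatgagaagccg
Per1: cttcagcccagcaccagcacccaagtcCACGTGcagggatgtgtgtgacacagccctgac
Per3: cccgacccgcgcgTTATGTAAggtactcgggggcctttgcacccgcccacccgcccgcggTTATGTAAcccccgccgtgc
Nr1d1: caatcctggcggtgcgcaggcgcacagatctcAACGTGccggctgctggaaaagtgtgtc
Arntl: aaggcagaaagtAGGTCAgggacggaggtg

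In all, CACGTG was present for 2 of the 9 genes and in 7.15% of 32851 promoters, CACGTT for 3 and in 4.68%, AGGTCA for 4 and in 16.3%, and TTATGTAA for 1 and in 0.938%. The gene counts take a match at any of the 13 start sites, while the shares are of single promoters, so they are not like for like. Cry2 held CACGTT at position -166 and Nr1d2 AGGTCA at position -77, while Clock held AGGTCA at position -119 of the third of its starts. Npas2 held none of these letters in this window. These matches describe the windows only.

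The first question was whether the clock genes oscillate in each diet. A 24 h wave was tested for each gene as the pair of cosine and sine terms over the 6 times of a diet. Its amplitude is the log2 distance from the mean to the peak. In TAN libraries 9 of the 10 genes had such a wave, all but Cry2, against 19.8% of the 19977 genes tested. In ad-lib libraries it was 5 of 10 (Npas2, Per2, Cry1, Nr1d1 and Nr1d2) against 0.0801% of genes. The members thus made up 5 of the 16 genes called in that diet. Fewer genes passed in ad-lib, so its adjusted cutoff was stricter and the counts of the diets are not like for like. By the F-test Arntl did not pass in ad-lib at an unadjusted p of 1.28e-04, while Per1 passed in TAN at 0.00654. The waves themselves differed between the diets for 4 members (Arntl, Clock, Npas2 and Nr1d1), against 20.2% of all genes. Any variation over the 6 times passed for 8 members in TAN (23.0% of all genes) and for 4 in ad-lib (0.0551%). Here too the ad-lib cutoff was the stricter. Peak hours fell in the same order in both diets for the 9 genes other than Cry2, although several neighbours lay within their errors and 4 of the ad-lib waves (Arntl, Clock, Per1 and Per3) did not pass. Without ad-lib replicates 1 and 3 of 4 AM the ad-lib peaks of Per1 and Per3 both lay at hour 18.3, and the waves of Arntl, Clock and Npas2 still differed between the diets (adjusted p = 0.00242, 0.00899 and 0.0167) while those of Nr1d1 did not (0.0593). Cosinor regression with 4 AM left out called a difference for Arntl (adjusted p = 0.0140) and not for Clock (0.486), Npas2 (0.323) or Nr1d1 (0.225). Cry1 came after midnight, Arntl, Clock and Npas2 toward morning, Nr1d1 in the afternoon, Nr1d2, Per1 and Per3 toward evening and Per2 last. Under labels 12 h apart every peak hour shifts by 12 h, which leaves the order and all intervals between genes as they are.

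**Figure D1:**
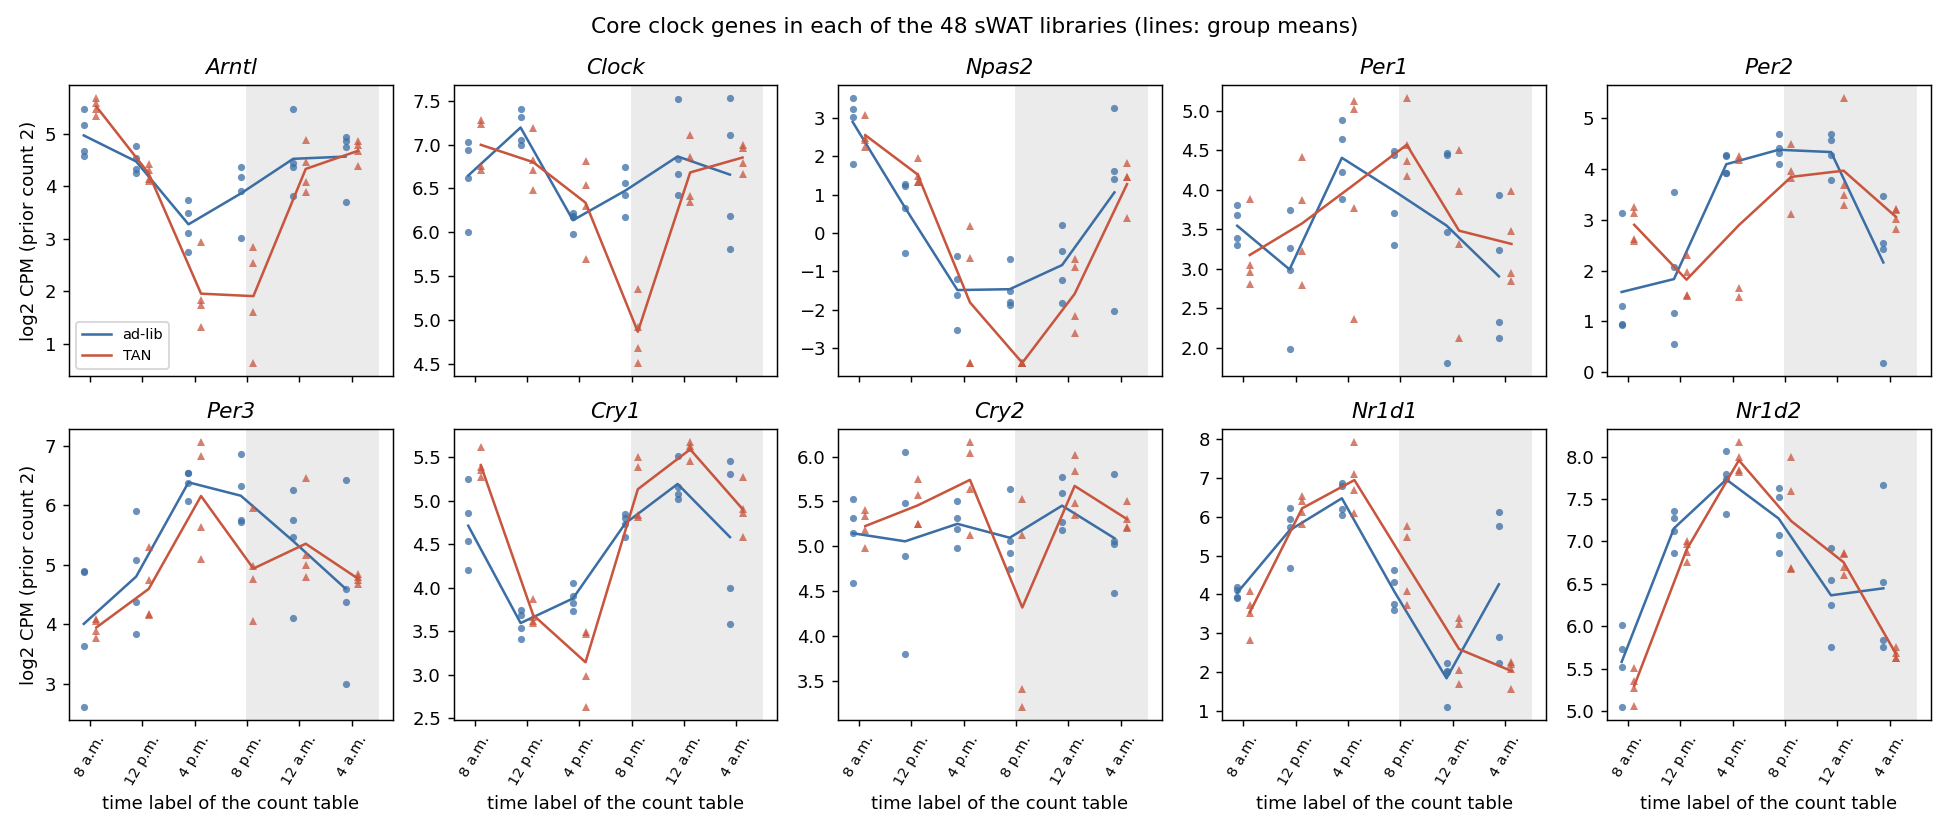
Expression of the 10 core clock genes in each library (log2 CPM with a prior count of 2) against the time label, with ad-lib libraries as circles, TAN libraries as triangles and lines through the group means of 4 libraries. Grey marks the dark phase. The TAN libraries of Arntl and Clock lie below all 4 ad-lib libraries at 8 PM, and the ad-lib libraries of Nr1d1 split into 2 high and 2 low at 4 AM.

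The 3 activator genes were lower in TAN than in ad-lib at 8 PM, and Arntl also at 4 PM. No member was called at 8 AM, 12 PM or 12 AM, when 0.0100%, 0.0851% and 0.110% of all genes were called higher in TAN and 0.00501%, 0.00501% and 0.0250% lower. Arntl, which encodes BMAL1, lies on chromosome 7 (GRCm38, 113207465 to 113314126, plus strand). It stood at 7.57, 3.46, 3.24 and 2.40 CPM in the TAN libraries at 4 PM and at 8.51, 6.64, 13.4 and 11.2 CPM in the ad-lib libraries. All but TAN replicate 1 lay below every ad-lib value. At 8 PM the TAN libraries held 5.77, 7.14, 2.94 and 1.46 CPM and the ad-lib libraries 20.4, 17.9, 14.9 and 8.04 CPM, with no overlap. These are the 2 times with the lowest TAN values. At 8 AM the order was turned, with 40.4 to 51.2 CPM in TAN and 23.7 to 44.1 CPM in ad-lib. The log2 fold change of TAN over ad-lib was -1.26 (standard error 0.37, adjusted p = 0.0230) at 4 PM, -1.82 (0.37, adjusted p = 0.00321) at 8 PM and 0.51 (0.36, adjusted p = 0.847) at 8 AM (edgeR's quasi-likelihood F-test, adjusted over all genes, as for all tests here). Averaged over the 6 times Arntl was lower in TAN by 0.51 on the log2 scale (standard error 0.15, adjusted p = 0.0360), against 2.74% of genes called lower and 2.68% higher. Its TAN effect differed between times (adjusted p = 0.0207), as it did for Clock and Nr1d1 and for 8.98% of all genes.

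Arntl was the only member called at 4 PM, where 7.43% of all genes were called lower and 2.93% higher (adjusted p under 0.05 and a change of more than 1 on the log2 scale). That call did not hold without any 1 of ad-lib replicates 3 and 4 or TAN replicates 2, 3 and 4 of that time (adjusted p from 0.0558 to 0.0944, log2 fold change from -1.18 to -1.06). With the lymphocyte markers as a covariate the log2 fold change was -1.37 and the adjusted p 0.227, and their part in the result was not tested further. The average over the day lost its call in 10 of the 48 leave-outs (adjusted p 0.0506 to 0.0601). These were ad-lib replicate 2 at 8 AM, replicates 3 and 4 at 4 PM, replicates 1 and 2 at 8 PM and replicate 2 at 12 AM, and TAN replicate 4 at 12 PM, 3 at 4 PM, 3 at 12 AM and 3 at 4 AM.

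The Arntl wave was deeper in TAN. Its amplitude was 1.74 (standard error 0.16) in TAN, a peak-to-trough ratio of 11.2, and 0.70 (0.15) in ad-lib, a ratio of 2.64. The difference was 1.04 (95% interval 0.62 to 1.47), and the waves of the diets differed with an adjusted p of 0.00239. The peak fell at hour 6.2 of the 24 h clock in TAN (standard error 0.32 h) and at 5.5 in ad-lib (0.79 h), at the end of the dark phase by the labels of the count table, and at 18.2 and 17.5 with labels 12 h apart. The peak hours differed by 0.74 h, with an interval from -0.94 to 2.42 h that spans 0. The ad-lib wave did not pass (adjusted p = 0.0944). It passed without ad-lib replicates 1 and 3 of 4 AM (amplitude 0.75, adjusted p = 0.0350). It also passed without replicate 1 alone or without TAN replicate 4 of 8 PM (adjusted p 0.0206 and 0.0378). By the same F-test its unadjusted p with all libraries was 1.28e-04, so the call turned on the adjustment over all genes.

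Clock (chromosome 5, 76209868 to 76304792, minus strand), which encodes the partner of BMAL1, showed a short dip in TAN. At 8 PM it stood at 30.3, 22.7, 25.6 and 40.6 CPM in TAN and at 85.6, 108, 72.0 and 94.3 CPM in ad-lib. Every TAN library lay below every ad-lib library. The log2 fold change was -1.59 (standard error 0.28, adjusted p = 9.36e-04), and no library left out alone removed this call. Without TAN replicates 1 and 2 of that time it was -1.45 (adjusted p = 0.0122). At the other 5 times Clock lay between -0.38 and 0.32, with no call, and the TAN effect differed between times (adjusted p = 0.0154). At the sampling times on either side the TAN libraries were back at 52.0 to 112 CPM (4 PM) and 81.5 to 138 CPM (12 AM). The amplitude was 0.81 (0.11) in TAN and 0.26 (0.11) in ad-lib, a difference of 0.55 (0.24 to 0.86, adjusted p = 0.0241). That difference was not called without ad-lib replicate 3 or TAN replicate 2 or 3 of 8 AM, or ad-lib replicate 2 or TAN replicate 2 of 8 PM (adjusted p 0.0520 to 0.0641), nor without TAN replicates 1 and 2 of 8 PM together (adjusted p = 0.0511), nor in cosinor regression with 4 AM left out (adjusted p = 0.486).

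Npas2 (chromosome 1, 39193731 to 39363236, plus strand), which encodes a paralog of CLOCK, swung most in ratio. In ad-lib it ran from 3.39 to 11.3 CPM at 8 AM to 0.0782 to 0.560 CPM at 4 PM. In TAN it stood at 4.66 to 8.32 CPM at 8 AM and had no read in any of the 4 libraries at 8 PM, where the ad-lib libraries held 14, 4, 6 and 4 reads (0.174 to 0.530 CPM). A count of 0 allows up to 3 reads per library, or 0.146 CPM on average, and against that floor the mean of 0.289 CPM in ad-lib was at least 1.98-fold higher. The difference was called (adjusted p = 0.0121), and was not without TAN replicates 1 and 2 (adjusted p = 0.0587). At 12 PM the diets did not overlap either, with 2.39 to 3.79 CPM in TAN and 0.601 to 2.33 CPM in ad-lib (3.30% of genes did not overlap with TAN higher), but the test gave an adjusted p of 0.931. The ad-lib wave had an amplitude of 2.52 (standard error 0.38) and peaked at hour 7.1 (0.53 h). In TAN the peak was at hour 8.2 (0.39 h), and the amplitude of the log2 mean CPM was 2.78 with 8 PM set to the floor, so that it would be larger below it. The waves differed with an adjusted p of 0.0367. This p rests on the fitted value of a group with no reads, and the call was lost in 14 of 48 leave-outs (adjusted p 0.0502 to 0.0693). These were ad-lib replicates 3 and 4 and TAN replicates 2 and 4 at 8 AM, ad-lib 2 and TAN 3 at 12 PM, ad-lib 1 and TAN 1, 2, 3 and 4 at 8 PM, and ad-lib 2 and TAN 1 and 4 at 12 AM.

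Arntl, Clock and Npas2 were thus the 3 members called at 8 PM, all lower in TAN, where 5.84% of all genes were called lower and 1.19% higher. They were also the only members with no overlap between the diets at that time (11.6% of genes did not overlap with TAN lower). With the lymphocyte markers as a covariate the same 3 were called. Without TAN replicates 1 and 2 of that time Arntl stood at -2.79 (adjusted p = 0.00202). Per3, with -1.14 (standard error 0.54, adjusted p = 0.157), was not called.

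**Figure D2:**
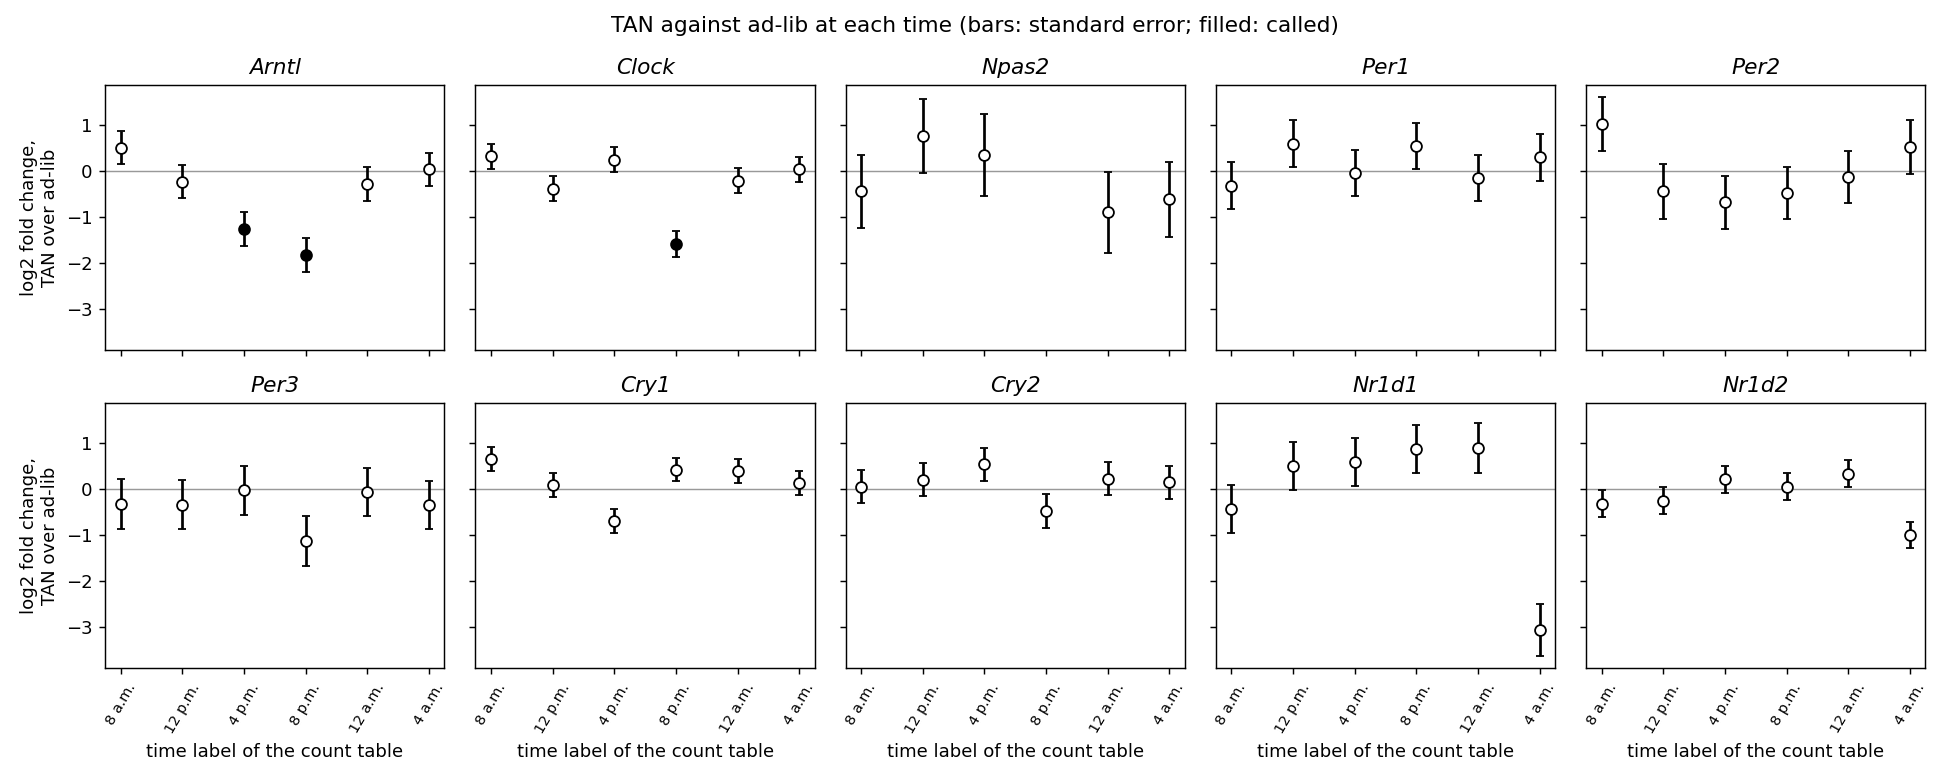
Log2 fold change of TAN over ad-lib at each time for each core clock gene, with standard errors and filled points for called differences (adjusted p under 0.05 and more than 1 on the log2 scale). Filled points are Arntl at 4 and 8 PM and Clock at 8 PM, Npas2 at 8 PM is not drawn since its TAN libraries had no reads, and the point for Nr1d1 at 4 AM (-3.07) is not called.

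Nr1d1 had the largest peak-to-trough ratio of the members after Npas2 in both diets. Nr1d1 (chromosome 11, 98767932 to 98775333, minus strand) encodes REV-ERBα, the haem-binding repressor of Arntl. In TAN it rose from 2.88 to 4.71 CPM at 4 AM to 68.0, 243, 103 and 137 CPM at 4 PM. In ad-lib it stood at 65.5, 118, 73.7 and 112 CPM at 4 PM and had its low at 12 AM, with 2.05 to 4.57 CPM. The amplitude was 2.59 (standard error 0.23) in TAN, a ratio of 36.0, and 1.58 (0.23) in ad-lib, a ratio of 8.98, with peaks at hours 15.1 (0.34 h) and 13.1 (0.51 h). The waves differed (adjusted p = 0.00365), in amplitude by 1.0 (0.37 to 1.63) and in peak by 2.02 h (0.81 to 3.23 h). Both differences changed with 2 libraries of 4 AM. At that time the ad-lib libraries held 54.5, 7.44, 69.9 and 4.62 CPM, 2 of them at the daytime level, and the TAN libraries 4.52, 4.71, 4.09 and 2.88 CPM.

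Without ad-lib replicates 1 and 3 of 4 AM the ad-lib amplitude of Nr1d1 was 2.26, the peak hour 14.1 and the adjusted p of the difference 0.0593. The test that its TAN effect differs between times passed with all libraries (adjusted p = 0.0117) and did not without these 2 (adjusted p = 0.167). The same holds for a 12 h component, which in ad-lib was called for Nr1d1 alone (amplitude 1.25, adjusted p = 0.0266, 0.0150% of genes). That component was lost without either of the 2 libraries, and also without any 1 of ad-lib replicates 1 and 4 at 8 AM, 2 at 12 PM, 2 and 4 at 4 PM and 2, 3 and 4 at 12 AM (adjusted p 0.0550 to 0.131). The 3′ end of Nr1d1 overlaps that of Thra on the other strand by 1075 bases. The strand setting of the counts is not given in the sources used here, so reads in that stretch may belong to either gene.

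At 4 AM itself 0 genes of all 19977 were called (2.64% at an unadjusted p under 0.05), and no member was. Nr1d1 had the smallest adjusted p of the members, at -3.07 on the log2 scale (0.56, adjusted p = 0.0577). Its unadjusted p of 2.89e-06 was below that of Arntl at 4 PM (0.00145), which was called, so calls at different times met unlike cutoffs. DESeq2 and a fit with other scaling factors called Nr1d1 at 4 AM. Without ad-lib replicates 1 and 3 its log2 fold change was -0.57 (adjusted p = 0.727). Leaving out 1 of the 2 low ad-lib libraries, replicate 2 or 4, also gave a call, as did leaving out ad-lib replicate 2 of 12 PM or TAN replicate 2 of 4 PM or of 8 PM (adjusted p 0.00129 to 0.0483). Nr1d2, which encodes REV-ERBβ, did not overlap between the diets at 4 AM (1.18% of genes with TAN lower), at 49.3, 53.9, 51.1 and 49.3 CPM in TAN and 204, 54.0, 91.6 and 57.0 CPM in ad-lib. Its log2 fold change was -1.0 (0.29, adjusted p of 1) and -0.12 without the 2 libraries.

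**Figure D3:**
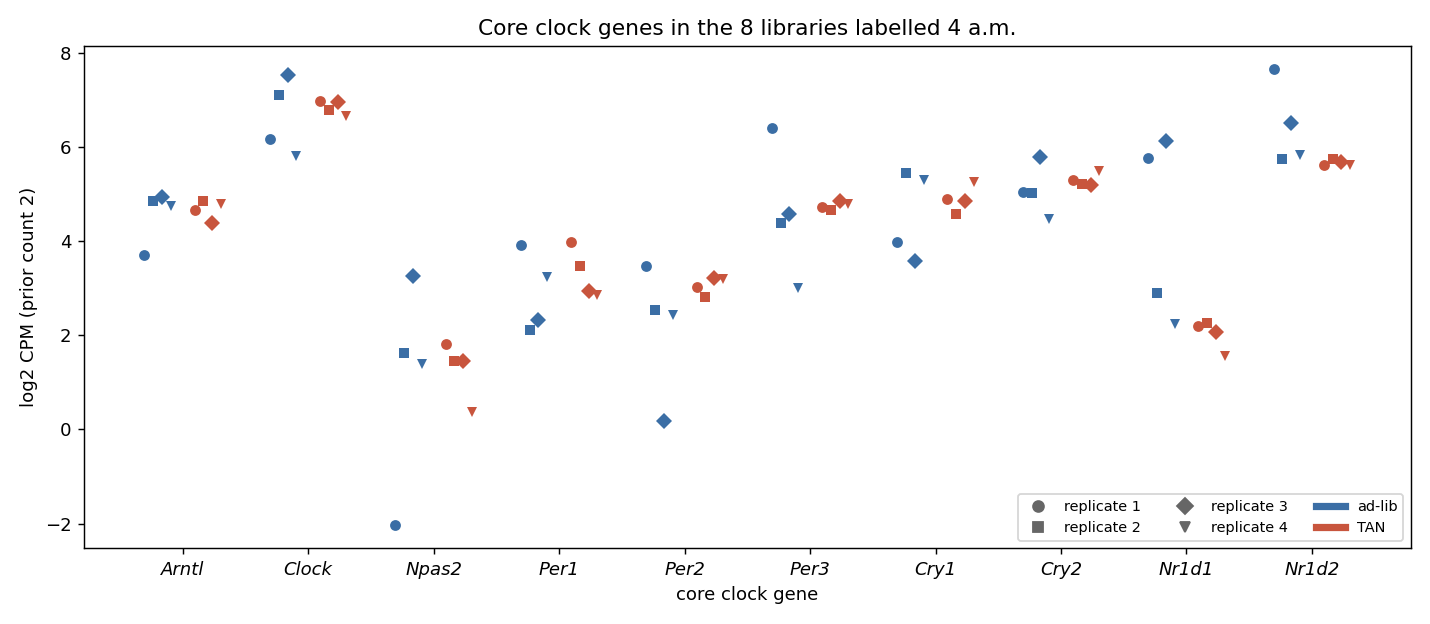
The 10 core clock genes in the 8 libraries labelled 4 AM (log2 CPM with a prior count of 2), with ad-lib in blue, TAN in red and a symbol for each replicate number, to be compared within a gene. Ad-lib replicates 1 and 3 lie high for Nr1d1 (54.5 and 69.9 CPM) and low for Cry1, and the 4 TAN libraries lie close together for most genes.

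Nr1d2 had no called difference at any time. It crested at 4 PM with 226 to 288 CPM in TAN and 160 to 269 CPM in ad-lib, and was lowest at 8 AM with 33.4 to 45.4 CPM and 32.9 to 65.0 CPM. Its peak lay at hour 17.7 (0.36 h) in TAN and 17.3 (0.55 h) in ad-lib, later than that of Nr1d1 in each diet. The amplitude was 1.26 (0.12) and 0.81 (0.12), and the waves did not pass the test of a difference (0.44, interval 0.11 to 0.78, adjusted p = 0.105). That adjusted p was 0.0456 to 0.0495 without any 1 of ad-lib replicates 2 and 4 of 4 AM and TAN replicates 1 and 2 of 8 PM, and 0.0156 without the latter 2 together. Without ad-lib replicates 1 and 3 of 4 AM it was 0.264, with an ad-lib amplitude of 1.09 and peak at hour 17.0.

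The Period genes encode the inhibitory partners of the Cryptochromes, and Per1 and Per2 are also induced by glucocorticoids. None of them was called between the diets at any time, nor did their waves pass the test of a difference. Per2 was high in ad-lib at 8 PM (17.1 to 25.8 CPM) and 12 AM (13.8 to 25.9 CPM). Its mean was lowest at 8 AM, where it stood at 1.84, 8.68, 2.37 and 1.81 CPM, against 8.65, 5.91, 9.47 and 6.08 CPM in TAN. All but 1 of the 4 ad-lib values at 8 AM lay below all TAN values (log2 fold change 1.02, standard error 0.59, adjusted p = 0.800). In TAN at 4 PM Per2 fell into 2 levels, with 2.69 and 3.05 CPM in replicates 1 and 3 and 19.0 and 18.0 CPM in replicates 2 and 4, while ad-lib held up to 19.4 CPM with a mean of 17.2 ± 2.41 CPM (SD, n = 4). Per3 split with it, at 49.4 and 34.2 CPM in the former 2 and 114 and 134 CPM in the latter.

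The Per2 wave had an amplitude of 1.46 (0.24) in ad-lib and 1.0 (0.24) in TAN, and peaked at hours 20.4 (0.64 h) and 22.4 (0.91 h). The peak was 2.03 h later in TAN with an interval from -0.15 to 4.20 h (adjusted p = 0.199 for the waves), and without ad-lib replicate 2 of 8 AM the waves differed (adjusted p = 0.0490). The ad-lib wave of Per2 was not called without ad-lib replicate 1 or 4 of 8 AM (adjusted p 0.0690 and 0.0813). Per3 peaked at hours 19.2 in ad-lib and 19.0 in TAN with amplitudes of 0.99 (0.22) and 0.82 (0.22). In TAN it was called, except without TAN replicate 4 of 8 PM (adjusted p = 0.0681). In ad-lib it was not (adjusted p = 0.144), except without replicate 1 of 4 AM (adjusted p = 0.00714). The unadjusted p of the same F-test was nevertheless smaller in ad-lib (3.63e-04) than in TAN (0.00273). Variation over the times of TAN was called for Per2, but not without TAN replicate 1 or 2 of 12 PM or 4 of 12 AM (adjusted p 0.0596 to 0.0725), and for Per3, but not without TAN replicate 4 of 4 PM (adjusted p = 0.0614). Per3 lies within Camta1 on the same strand, so reads in the shared stretch may belong to either gene.

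Per1 had the weakest wave of the 3, with amplitudes of 0.70 (0.21) in TAN and 0.56 (0.21) in ad-lib and peaks at hours 18.3 and 18.7. Its values spread widely within groups, for example 5.07, 32.3, 13.5 and 34.6 CPM in TAN at 4 PM. The TAN wave (adjusted p = 0.0385) was lost in 8 leave-outs (adjusted p 0.0607 to 0.0793), those of TAN replicates 1, 2 and 3 at 8 AM, 2 and 4 at 4 PM, 4 at 8 PM and 3 and 4 at 4 AM. The ad-lib wave was not called (adjusted p = 0.405).

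The 2 Cryptochromes, the main repressors of CLOCK and BMAL1, behaved unlike each other. Cry1 had a wave in both diets and was among the most tightly measured members, with a spread within groups of 0.27 on the log2 scale in TAN and 0.44 in ad-lib (SD), or 0.24 without ad-lib replicates 1 and 3 of 4 AM. In TAN it stood at 43.6, 49.3, 48.5 and 50.9 CPM at 12 AM, at 23.8 to 38.6 CPM at 4 AM and at 38.4 to 48.7 CPM at 8 AM. At 4 PM it stood at 6.10 to 11.1 CPM. At 8 PM, before the first meal, it was already at 45.1, 28.4, 28.0 and 41.5 CPM. Its group means had 2 maxima, at 12 AM (48.1 CPM) and 8 AM (42.4 CPM). By the count table labels these are the first sampling times after each meal. The mean at 8 PM (35.7 CPM) was nevertheless above that at 4 AM (30.2 CPM), and a link to the meals was not tested. At 12 AM the lowest of the 4 values, 43.6 CPM, was that of replicate 1, the library with lymphocyte markers at the ad-lib level, and the part of those markers in the others was not tested. A 12 h component was called in TAN (amplitude 0.71, adjusted p = 0.00117) and not in ad-lib (0.26, adjusted p of 1), and the difference between those components was not tested. Clock was the other member with a called 12 h component in TAN (0.50, adjusted p = 0.0362), against 2.07% of all genes, and lost it in 14 leave-outs (adjusted p 0.0508 to 0.115). These were TAN replicates 1, 2 and 4 at 8 AM, 4 at 12 PM, 1, 2 and 4 at 4 PM, 1 and 2 at 8 PM, 2 and 4 at 12 AM and 1, 2 and 3 at 4 AM.

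The 24 h amplitude of Cry1 was 1.06 (0.11) in TAN and 0.74 (0.11) in ad-lib, and its peak lay at hours 2.2 (0.38 h) and 1.4 (0.54 h). The waves did not pass the test of a difference (amplitude difference 0.32, interval 0.02 to 0.61, adjusted p = 0.167). Without ad-lib replicates 1 and 3 of 4 AM the ad-lib amplitude was 0.90 and the peak at hour 2.0, and the adjusted p of the difference was 0.561. Cry1 did not overlap between the diets at 8 AM, with 41.8, 40.7, 48.7 and 38.4 CPM in TAN and 18.3, 23.1, 29.0 and 38.1 CPM in ad-lib (2.03% of genes did not overlap with TAN higher). At 4 PM it did not overlap in the other direction, with 6.10 to 11.1 CPM in TAN and 14.1, 14.9, 13.1 and 16.5 CPM in ad-lib (17.8% of genes with TAN lower). The log2 fold changes were 0.64 (0.26, adjusted p = 0.682) and -0.70 (0.26, adjusted p = 0.0570). Neither was called. Without ad-lib replicates 1 and 3 of 4 AM the adjusted p at 4 PM was 0.0179, with a change too small for a call, and the TAN effect on Cry1 differed between times (adjusted p = 0.00638, and 0.0840 with all libraries). In ad-lib at 4 AM Cry1 stood at 15.8 and 11.9 CPM in replicates 1 and 3 and at 43.5 and 39.4 CPM in replicates 2 and 4, the reverse of Nr1d1.

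Cry2 showed no wave in either diet, with amplitudes of 0.05 (0.15) in ad-lib and 0.11 (0.15) in TAN, so that no peak hour is given. It ran from 13.8 to 66.3 CPM in ad-lib and from 9.14 to 71.6 CPM in TAN. The 2 lowest values were those of TAN replicates 1 and 2 at 8 PM (10.5 and 9.14 CPM, against 34.7 and 46.1 CPM in replicates 3 and 4), the libraries with the lowest adipocyte marker sums. The part of adipocyte content in these values was not tested.

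**Figure D4:**
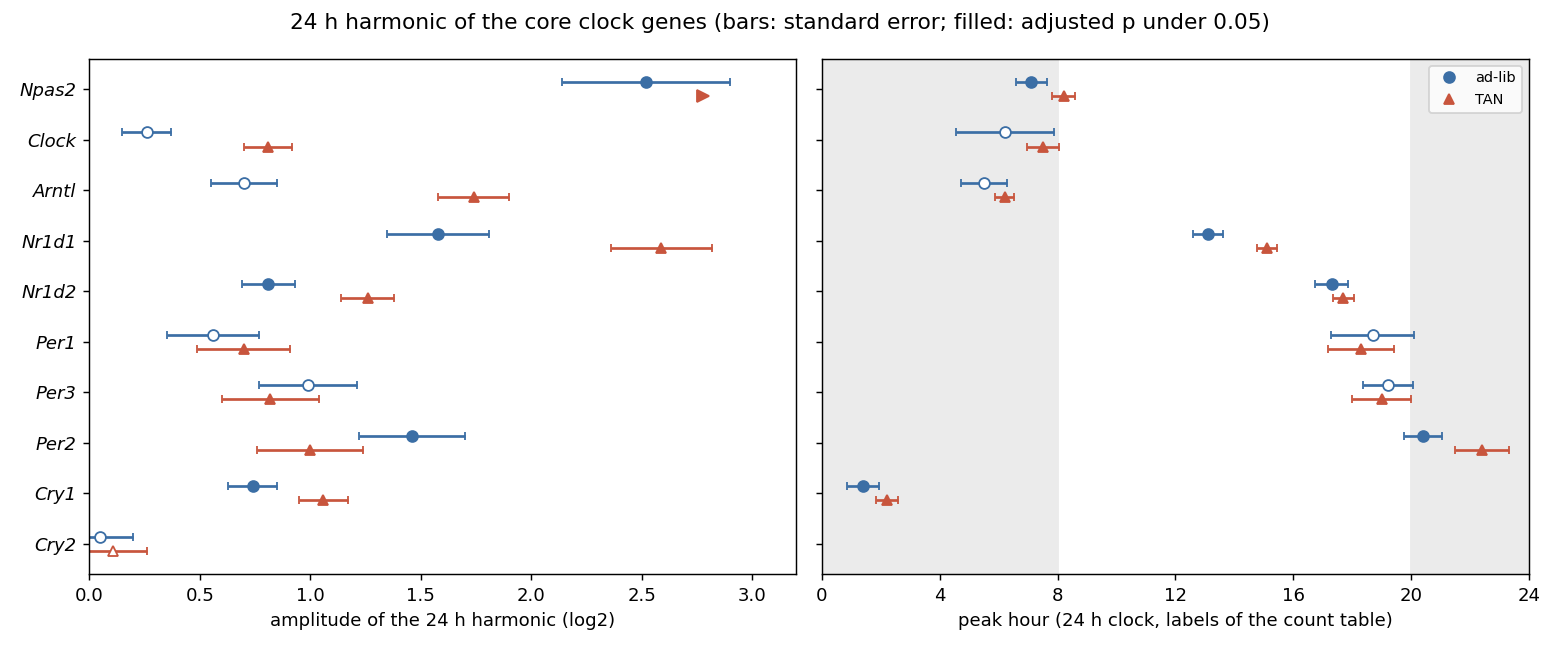
Amplitude (left, log2) and peak hour (right, 24 h clock by the count table labels, dark phase in grey) of the 24 h wave of each core clock gene in ad-lib (circles) and TAN (triangles), with standard errors and filled symbols for an adjusted p under 0.05. The amplitude of Arntl is 0.70 in ad-lib and 1.74 in TAN, the sideways triangle of Npas2 in TAN (2.78) takes 8 PM at its floor, and Cry2 has no peak hour.

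Per length of transcript, the levels differed by more than an order of magnitude between members. Over the 24 ad-lib libraries Nr1d2 stood at 23.2 ± 12.2 CPM per kilobase (SD), followed by Nr1d1 (11.8 ± 11.3), Clock (7.84 ± 2.85), Cry1 (7.23 ± 3.32), Cry2 (6.02 ± 1.87), Per3 (5.09 ± 3.32), Arntl (2.88 ± 1.36), Per1 (2.42 ± 1.26), Per2 (2.08 ± 1.45) and Npas2 (0.509 ± 0.716). Neighbours in this order, apart from Per2 and Npas2, lay within these SDs of each other, which include the variation over the day. In TAN the means ran from 22.5 ± 14.5 for Nr1d2 to 0.415 ± 0.469 for Npas2. The spread between libraries of the same group was larger in ad-lib for 7 of the 10 members (median SD 0.64 in ad-lib and 0.59 in TAN on the log2 scale), while over all genes it was larger in ad-lib for 50.6% (0.66 and 0.70). This count rests on ad-lib replicates 1 and 3 of 4 AM. Without them the spread was larger in ad-lib for 3 of the 10 members (Clock, Per3 and Nr1d2, median SD 0.50 and 0.59) and for 45.2% of all genes. The spread of Nr1d1 was then 0.48 in ad-lib and 0.68 in TAN. Those libraries were picked for lying apart by these same genes, and no TAN library was left out. A smaller ad-lib spread without them largely follows from that choice.

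The profile of the 10 genes at 8 PM, the time of lights-off, was also compared across the diets, as a description. When the ad-lib libraries were set against the TAN means, the 4 libraries of 8 PM each lay closest to TAN at 12 AM (distances 0.54 to 1.06, against 1.13 to 1.36 to TAN at 8 PM). For replicate 4 the distances were close (1.06 and 1.13). Npas2, with no reads in TAN at 8 PM, is part of the distances. By the 8 clock output genes, ad-lib replicates 1 and 3 lay closest to TAN at 12 PM, replicate 2 to 12 AM and replicate 4 to 8 PM. In the other direction, by the 10 genes, TAN replicates 3 and 4 at 8 PM lay closest to ad-lib at 4 PM (1.12 and 1.23 against 1.26 and 1.44), and replicates 1 and 2 to ad-lib at 8 PM. By the output genes TAN replicates 1, 3 and 4 lay closest to ad-lib at 4 PM and replicate 2 to 12 PM.

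Among 17 partners and modifiers of the clock, 0 had a 24 h wave in ad-lib and 3 in TAN, against 0.0801% and 19.8% of all genes. Their median amplitude was 0.12 and 0.19, against 0.27 and 0.40 over all genes. Over the 10 core genes it was 0.78 and 1.03, whether Npas2 is taken at its fitted value or at its floor. Among the 3 partners with a wave in TAN were Ciart, a repressor of CLOCK and BMAL1 (amplitude 2.15, adjusted p = 0.00171), and Usp2, a deubiquitinase (0.93, adjusted p = 0.00986). Neither passed a test between the diets, with adjusted p of 0.379 and 0.815 for the difference of their waves.

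Of 8 output genes, all 8 had a wave in TAN, against 19.8% of all genes. In ad-lib 2 had one, against 0.0801%, namely Dbp (amplitude 1.24, adjusted p = 0.00773) and Nfil3 (1.07, adjusted p = 0.00515). As for the members and the partners, the adjusted cutoff was stricter in ad-lib. The median amplitude of the 8 output genes was 0.62 in ad-lib and 1.06 in TAN. Dbp and Nfil3 encode an activator and a repressor of the same D-box sites, and their peaks stood apart, at hours 17.8 and 3.1 in ad-lib and 18.1 and 4.2 in TAN. Dbp was the only output gene that passed between the diets. At 8 PM its log2 fold change was 1.52 (standard error 0.50, adjusted p = 0.0416), where 1.19% of all genes were called higher. Its waves differed (amplitude 2.30 in TAN, difference 1.06, interval 0.46 to 1.66, adjusted p = 0.0211), as did those of 20.2% of all genes. Of 8 glucocorticoid target genes, 3 had a wave in TAN (Fkbp5, Tsc22d3 and Sgk1, against 19.8% of all genes) and 1 in ad-lib (Fkbp5, against 0.0801%). None passed between the diets at any time. The waves differed between the diets for 1 of the 8, against 20.2% of all genes. It was Tsc22d3, a glucocorticoid-induced leucine zipper gene (adjusted p = 0.0128).

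Likeness to the members was measured across the 48 libraries over 14753 genes by Pearson's r of log2 CPM, as a description, since all genes share the libraries, their depth and their cell make-up. The genes most like Arntl were Dtx4 (r = 0.84), Cdkn1a (0.75), Slc16a1 (0.74), Leo1 (0.70) and Cd274 (0.68), and the most opposite were Dbp (-0.87), Slc5a6 (-0.80) and Tef (-0.75). The genes most like Nr1d1 were Tns2 (0.75), Pim3, Ap5s1 and Abi2 (0.70 each) and Neil2 (0.68). Those most like Per2 were Gm45819 (0.76), Wee1 (0.75), Fkbp5 (0.69), Smarca2 (0.68) and Dennd2d (0.67).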

How the data were processed

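The authors selected poly-A RNA of iWAT, made random-primed cDNA, sequenced it on Illumina machines and deposited raw counts per gene for each of the 48 libraries, without normalization. They also deposited FPKM values averaged over each diet and time, which were used here only to check time labels. The submitters' processing notes name TopHat 1.3.3, DESeq2 1.20.0, limma and edgeR, and mm9, mm10 and GRCm38 as builds. Start and end of 98.1% of the 54532 genes equal GENCODE M21 (GRCm38). The labels give no batch. Groups came from the sample labels, 0 columns were left unused, and 0 libraries were identical.

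Here genes were kept by filterByExpr (minimum count 10), scaled by TMM and fitted over the 12 groups by edgeR 4.0.16 (R 4.3.3, robust quasi-likelihood). P-values were adjusted by Benjamini-Hochberg over all 19977 genes. TAN was compared with ad-lib at each time (called at an adjusted p under 0.05 and a log2 fold change past 1), over the day and between times, and waves of 24 and 12 h were contrasts of the group terms, with errors by the delta method. CPM values use the TMM factors. The fits were checked on simulated counts. The alternatives were no filter, RLE factors, DESeq2 1.42.0, limma 3.58.1 voom, a replicate block, marker covariates, mitochondrial genes left out, cosinor regression, time labels 12 h apart and each library left out. Added after seeing the data were the joint removal of ad-lib libraries 1 and 3 at 4 AM, of TAN libraries 1 and 2 at 8 PM, and, in cosinor regression, of all 4 AM libraries. The members, gene lists and tests were chosen with earlier results of these data known. The text names all members, the partner and output genes of the tests it describes (some items are not reported here), and the 5 genes most like 3 members. Replicate numbers were not taken to pair libraries. Over 5000 genes r ran from -0.586 to 0.844 in 24 pairs (median -0.0127, above 0.1 in 10), which does not exclude pairing.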

Additional observations from a re-analysis of the deposited data

Results flagged for a closer look

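Of 119 groups of 4 libraries tested over the 10 genes, 4 had 1 library far from the others by Dixon's criterion (gap over range above the 95% critical value), and chance flags about 1 in 20 groups. In TAN at 12 AM replicate 4 was high for Per2 (42.2 CPM, others 9.73 to 12.8) and for Per3 (87.6 CPM, others 27.8 to 35.8). Per2 in ad-lib at 8 AM was high in replicate 2 (8.68 CPM, others 1.81 to 2.37), and Per1 in TAN at 8 AM was high in replicate 4 (14.7 CPM, others 6.91 to 8.21).

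The TAN effect differed between times for Arntl (adjusted p = 0.0207), Clock (0.0154) and Nr1d1 (0.0117). The 24 h waves differed between the diets for Arntl (adjusted p = 0.00239), Clock (0.0241), Npas2 (0.0367) and Nr1d1 (0.00365). Both Nr1d1 results were lost without ad-lib replicates 1 and 3 of 4 AM.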

How the results depend on the processing

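Of the 41 calls over the 10 genes and 15 tests, the replicate block changed 1 (Per2 over the times of TAN, adjusted p = 0.0328 without and 0.0511 with it), with 3 genes called at 8 PM as without it, and no called difference turned its sign under any alternative run. The count at 4 PM was 0 with limma voom and with the lymphocyte covariate (1 in the report). The count at 4 AM was 1, Nr1d1, with RLE factors, DESeq2, the lymphocyte covariate, the muscle covariate and without TAN replicates 1 and 2 of 8 PM (0 in the report). Over the day it was 2 with the lymphocyte covariate (1), and 5 TAN effects differed between times with DESeq2 (3). Waves in ad-lib numbered 3 with DESeq2, which gave only 5 of the 10 genes an adjusted p, and 3 with cosinor regression (5). Waves that differed between diets numbered 2 with cosinor regression and 1 with the same regression and 4 AM left out (4). The 12 h components in ad-lib were 0 with limma voom and without ad-lib replicates 1 and 3 of 4 AM (1), and in TAN 1 with no filter and with the lymphocyte covariate (2). The causes were not tested.

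With each of the 48 libraries left out, the counts ran from 0 to 1 at 4 PM and 4 AM, stayed at 3 at 8 PM and at 0 at the other 3 times, and ran from 0 to 2 over the day and from 3 to 5 between times. For variation over times they ran from 4 to 5 in ad-lib and 7 to 9 in TAN, for 24 h waves from 4 to 7 and 7 to 9, for their difference from 2 to 5, and for 12 h from 0 to 1 and 1 to 5. Depth limits Npas2 most, whose libraries held down to 0 reads.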
